A study of Mus musculus with 9 samples.

Results

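The S100 proteins are small calcium-binding proteins, each built around a pair of EF hands, the loop-and-helix fold that holds a calcium ion. S100A8 and S100A9 join into a heterodimer called calprotectin, a leading protein of the neutrophil cytosol, which withholds zinc and manganese from microbes and acts as an alarmin when it is released and binds TLR4 or the receptor RAGE. The relatives S100A4, S100A6, S100A10 and S100A11 bind annexins, myosin and other partners inside cells, S100A13 takes part in the export of proteins that lack a signal peptide, and S100A1 is best known from heart and muscle.

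The genes were taken by symbol. Of 8 members named (S100a1, S100a4, S100a6, S100a8, S100a9, S100a10, S100a11 and S100a13), 7 were among the 7197 genes listed, 6 of them passed the filter of a mean of at least 10 normalized counts, and S100a10 is not analysed here. The cells were neutrophils (CD45+, CD11b+, Ly6G+) sorted from the bone marrow of mice 2 months old. There were 5 libraries from Rragc+/+ mice, which carry unedited Rragc, and 4 from heterozygous RragcS74N/+ mice. Rragc encodes RagC, a Rag GTPase that signals nutrient sufficiency to mTORC1. In RragcS74N/+ mice 1 allele, edited in the germline and thus present in every tissue, encodes an active form with asparagine in place of serine, together with silent changes in exon 1. The question was whether the S100 transcripts of neutrophils differ between the genotypes. Effects of the allele within neutrophils and effects of other tissues that carry it cannot be told apart in this design.

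RNA was read at transcript 3′ ends, so each transcript yields fragments from 1 region and counts were not divided by transcript length. The values are normalized counts, that is read counts divided by a size factor for each library. Recovered reads per library ran from 1214295 to 1973957. All 11 neutrophil markers looked for were listed, with a summed level of 125423 to 182802 normalized counts in Rragc+/+ and 120909 to 203586 in RragcS74N/+, a sum that S100a8 and S100a9 dominate. Erythroid markers (6 of 7 listed) summed to between 1090 and 5585 in Rragc+/+ and between 378 and 2147 in RragcS74N/+ (median log2 difference -1.67). In limma, 5 of the 6 were lower in RragcS74N/+ at an unadjusted p under 0.05, against 254 of 6673 genes tested (3.81%), and 0 at an adjusted one. Markers of the same cell type are not independent of each other. The erythroid share of listed counts was 0.235% ± 0.123 (SD, n = 5) against 0.0820% ± 0.0496 (SD, n = 4; exact permutation test, p = 0.0556). Eosinophil and basophil markers (3 of 6) summed to between 46.9 and 121 in Rragc+/+ and between 51.7 and 206 in RragcS74N/+. Replicates 1 and 3 of RragcS74N/+ (51.7 and 61.8) lay within the Rragc+/+ range, and replicates 2 and 4 (203 and 206) above it. The median log2 difference was 1.10, with 2 markers above 0 and 1 below (-0.14). In limma, 1 of the 3 was higher in RragcS74N/+ at an unadjusted p under 0.05, against 134 genes (2.01%), and 0 at an adjusted one. Neutrophil precursor markers (6 of 10, led by Ngp, Camp and Ltf) summed to between 17503 and 24798 in Rragc+/+ and between 14886 and 25656 in RragcS74N/+. Monocyte markers (2 of 9) reached at most 390 normalized counts, B cell markers (2 of 7) at most 146 and the T and NK cell gene Cd3d (1 of 8) at most 28.9, and 0 of 4 platelet markers were listed.

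All members lie on mouse chromosome 3, where they span 3.04 Mb, and S100a8 and S100a9 are neighbours on opposite strands, 22.6 kb apart. RefSeq promoter windows (assembly GRCm38.p6, from 250 bases before to 50 bases after the annotated start) were found for 7 of the 8 members. The windows of the 4 most abundant members are shown because they include S100a8 and S100a9, whose levels moved together between libraries. Capitals mark the TATA box letters TATAAA on the gene's own strand, the C/EBP half-site ATTGC on either strand (GCAAT when it lies on the other strand) and the AP-1 letters TGANTCA. The windows are chr3:90668821-90669120 (plus strand) for S100a8, chr3:90695672-90695971 (minus strand) for S100a9, chr3:90612644-90612943 (plus strand) for S100a6 and chr3:93520246-93520545 (plus strand) for S100a11.
S100a8: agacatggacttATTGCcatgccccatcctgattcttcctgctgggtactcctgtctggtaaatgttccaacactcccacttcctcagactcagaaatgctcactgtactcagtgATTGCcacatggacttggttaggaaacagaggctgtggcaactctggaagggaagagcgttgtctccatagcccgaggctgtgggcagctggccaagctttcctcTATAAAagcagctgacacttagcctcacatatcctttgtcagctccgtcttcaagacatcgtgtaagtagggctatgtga
S100a9: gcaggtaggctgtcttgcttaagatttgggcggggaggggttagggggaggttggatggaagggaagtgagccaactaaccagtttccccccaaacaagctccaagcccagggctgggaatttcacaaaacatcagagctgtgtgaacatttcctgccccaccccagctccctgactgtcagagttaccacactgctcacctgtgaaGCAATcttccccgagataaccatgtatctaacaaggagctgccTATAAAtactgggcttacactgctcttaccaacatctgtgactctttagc
S100a6: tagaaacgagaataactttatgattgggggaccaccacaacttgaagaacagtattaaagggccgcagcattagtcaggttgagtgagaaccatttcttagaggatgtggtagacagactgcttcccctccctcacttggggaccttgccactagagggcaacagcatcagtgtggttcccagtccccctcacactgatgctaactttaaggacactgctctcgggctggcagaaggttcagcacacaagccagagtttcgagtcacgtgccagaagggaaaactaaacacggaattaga
S100a11: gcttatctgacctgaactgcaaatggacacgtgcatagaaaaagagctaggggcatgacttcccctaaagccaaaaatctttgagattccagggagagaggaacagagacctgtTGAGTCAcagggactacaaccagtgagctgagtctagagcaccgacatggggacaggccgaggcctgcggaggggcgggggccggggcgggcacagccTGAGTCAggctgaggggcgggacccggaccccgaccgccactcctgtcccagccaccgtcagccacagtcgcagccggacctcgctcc

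TATAAA was found 30 bases before the start of S100a8, at the annotated start of S100a9 and 31 bases before the start of S100a4, and 8.32% of 32851 RefSeq windows hold it on the gene's strand. ATTGC, searched on both strands and held by 26.4% of windows, was found in S100a8 (238 and 135 bases before the start) and S100a9 (43 bases before) and in no other member. The longer C/EBP letters TTNNGCAA, in 10.8% of windows, occurred in S100a9, 236 bases before the start. The PU.1 core GAGGAA, in 28.3% of windows, was found in S100a4, S100a8 and S100a11, and TGANTCA, in 7.81%, was found at 136 and 38 bases before the start of S100a11. The STAT letters TTCNNNGAA, in 8.30% of windows, were found in no member, and no motif of the 6 was found in S100a6, S100a1 or S100a13. S100a1 and S100a13 are read away from each other, and their windows share 204 bases. These matches describe letters in the windows and were not tested for binding.

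S100a9 and S100a8 were the most abundant and the second most abundant of all listed genes, and together they held 6.59% to 10.2% of the listed counts, or about 1 read in 9.8 to 1 in 15. In Rragc+/+ replicates 1 to 5 the share was 6.59%, 8.70%, 8.53%, 7.38% and 10.2%. In RragcS74N/+ replicates 1 to 4 it was 6.94%, 10.1%, 7.82% and 10.2%. Each genotype held libraries near 7% and near 10%, so the ranges overlapped almost fully. The mean was 8.27% ± 1.36 (SD, n = 5) against 8.77% ± 1.65 (SD, n = 4) in the mutant, a difference of 0.50 percentage points (two-sided exact permutation test, p = 0.635, adjusted over 3 tests p = 0.889). The smallest p that 126 permutations can give is 0.00794. In bulk samples, fewer cells of a type and less RNA per cell cannot be told apart. The reads put each share within narrow limits, from 6.56% to 6.63% for Rragc+/+ replicate 1 and from 10.13% to 10.23% for RragcS74N/+ replicate 4 (95% Wilson intervals), which cover counting error only.

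**Figure D1:**
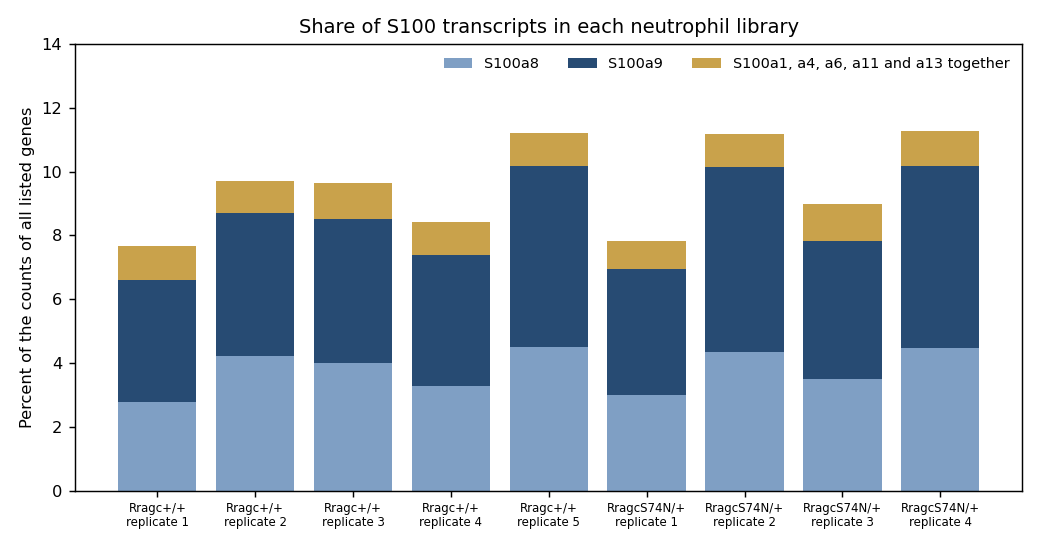
Percent of the counts of all listed genes held by S100a8, S100a9 and the other 5 listed members together, one stacked bar per library. The bars of both genotypes run from about 8% to 11% in all, and the part of S100a8 and S100a9 varies while the part of the other members stays near 1%.

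For S100a8 the normalized counts in Rragc+/+ replicates 1 to 5 were 36088, 59720, 54133, 41129 and 62431. In RragcS74N/+ replicates 1 to 4 they were 36690, 61746, 44084 and 67521. Both genotypes held low libraries (36088 and 36690 at the lowest) and high ones (62431 and 67521 at the highest), and the ranges overlapped. The mean was 50700 ± 11575 (SD, n = 5) against 52510 ± 14514 (SD, n = 4), with a log2 difference (RragcS74N/+ minus Rragc+/+) of 0.04 (SE 0.24, 95% interval from -0.47 to 0.55, limma adjusted p = 0.967). The direction of this small difference turned when single libraries were left out, with values from -0.10 to 0.20.

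For S100a9, the partner of S100a8 in calprotectin, the normalized counts in Rragc+/+ replicates 1 to 5 were 49644, 63676, 60864, 51755 and 78548. In RragcS74N/+ replicates 1 to 4 they were 48542, 82840, 54090 and 86386. The same libraries as for S100a8 were low and high, with RragcS74N/+ replicates 2 and 4 and Rragc+/+ replicate 5 at the top. The mean was 60897 ± 11505 (SD, n = 5) against 67964 ± 19411 (SD, n = 4), and the log2 difference was 0.13 (SE 0.22, 95% interval from -0.35 to 0.61, limma adjusted p = 0.860). It was 0.0017 without RragcS74N/+ replicate 4, 0.022 without RragcS74N/+ replicate 2, 0.06 without Rragc+/+ replicate 1, 0.08 without Rragc+/+ replicate 4 and between 0.14 and 0.28 with any other library left out.

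S100a9 exceeded S100a8 in 9 of 9 libraries, by a log2 ratio of 0.32 ± 0.12 (SD, n = 9; two-sided exact sign-flip permutation test, p = 0.00391). The ratio of S100a9 to S100a8 was 1.38, 1.07, 1.12, 1.26 and 1.26 in Rragc+/+ replicates 1 to 5, and 1.32, 1.34, 1.23 and 1.28 in RragcS74N/+ replicates 1 to 4. The lowest values, 1.07 and 1.12, and the highest, 1.38, were all in Rragc+/+, so the RragcS74N/+ values lay inside the Rragc+/+ range. The log2 ratio was 0.28 ± 0.15 (SD, n = 5) and 0.37 ± 0.06 (SD, n = 4), a difference of 0.09 (exact permutation test, p = 0.302, adjusted over 3 tests p = 0.889).

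S100a6, also named calcyclin, measured 7170, 6692, 6859, 6768 and 6744 normalized counts in Rragc+/+ replicates 1 to 5, and 5890, 7652, 6837 and 9294 in RragcS74N/+ replicates 1 to 4. The Rragc+/+ libraries lay close together, while RragcS74N/+ replicate 1 lay below and replicates 2 and 4 above all of them. The mean was 6846 ± 191 (SD, n = 5) against 7418 ± 1443 (SD, n = 4), with a coefficient of variation of 2.79% against 19.4%, and the difference in spread was not tested. The log2 difference was 0.10 (SE 0.16, 95% interval from -0.26 to 0.45, limma adjusted p = 0.860), and it was -0.02 without RragcS74N/+ replicate 4.

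S100a11, a partner of annexin A1, measured 6683, 7369, 8070, 6160 and 7528 normalized counts in Rragc+/+ replicates 1 to 5, and 4816, 6929, 7657 and 7038 in RragcS74N/+ replicates 1 to 4. RragcS74N/+ replicate 1 was the lowest of all, and the other RragcS74N/+ libraries lay within the Rragc+/+ range. The mean was 7162 ± 747 (SD, n = 5) against 6610 ± 1238 (SD, n = 4). The log2 difference was -0.13 (SE 0.18, 95% interval from -0.51 to 0.25, limma adjusted p = 0.818), and it was 0.01 without RragcS74N/+ replicate 1.

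The remaining members were far scarcer. S100a13 measured 153, 127, 118, 156 and 237 normalized counts in Rragc+/+ replicates 1 to 5, and 127, 192, 185 and 324 in RragcS74N/+ replicates 1 to 4. RragcS74N/+ replicate 4 was the highest and Rragc+/+ replicate 5 the next, and the other libraries overlapped. The log2 difference of S100a13, 0.35 (SE 0.26, 95% interval from -0.22 to 0.91, limma adjusted p = 0.733), had the smallest unadjusted p of the members, and it was 0.10 without RragcS74N/+ replicate 4 and 0.55 without RragcS74N/+ replicate 1.

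S100a1 measured 15.8, 54.9, 19.7, 37.8 and 44.1 normalized counts in Rragc+/+ replicates 1 to 5, and 12.6, 22.4, 25.6 and 43.9 in RragcS74N/+ replicates 1 to 4. The values rested on 19 to 47 reads per library, and the genotypes overlapped. The log2 difference of S100a1 was -0.37 (SE 0.39, 95% interval from -1.21 to 0.47, limma adjusted p = 0.779), with values from -0.66 without RragcS74N/+ replicate 4 to -0.08 without RragcS74N/+ replicate 1. S100a4, also named metastasin, measured 4.61 to 8.02 normalized counts in Rragc+/+ (median 6.43) and 4.07 to 13.6 in RragcS74N/+ (median 7.74), on 4 to 13 reads per library. Its mean of 7.10 lay under the filter, and its difference of 0.30 on the log2 scale had p = 0.413 in an exact permutation test. In the GENCODE annotation of GRCm38 the gene model Gm42674 overlaps 93.0% of the S100a4 span on the same strand, so the count of S100a4 is uncertain.

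**Figure D2:**
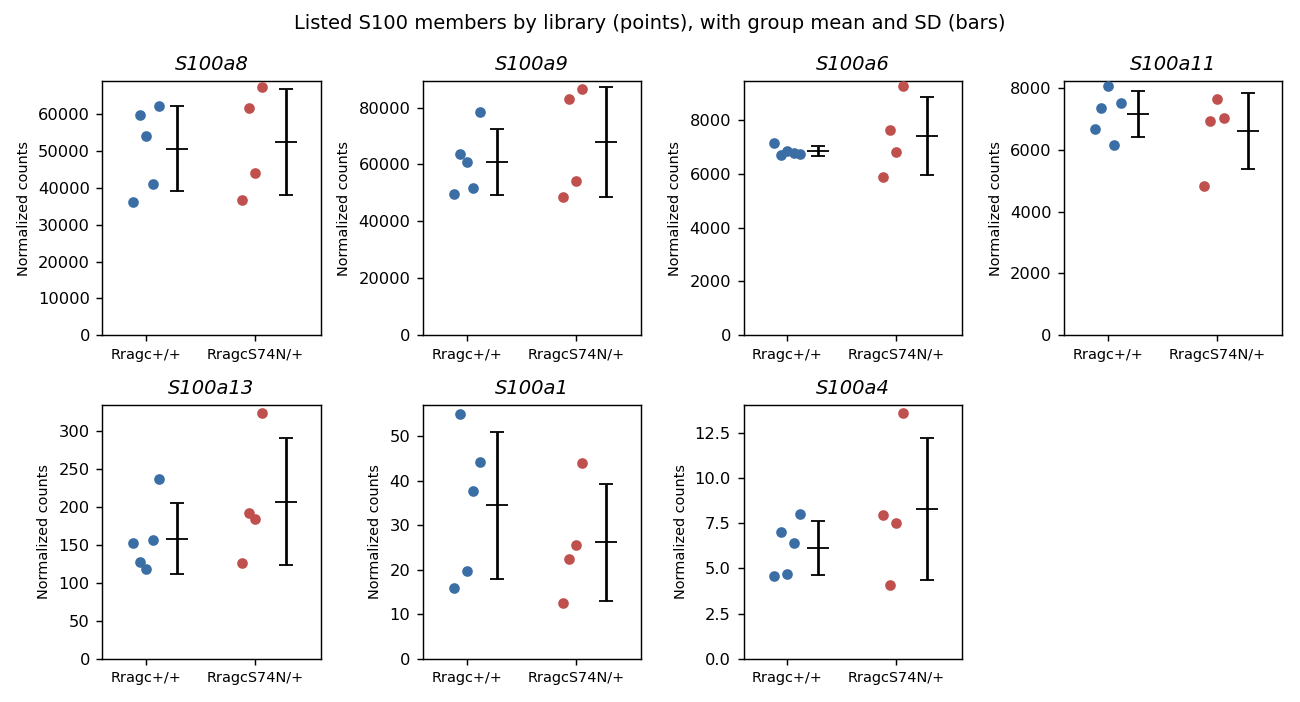
Normalized counts of the 7 listed members, one panel per gene with its own axis from 0. Points are libraries (5 Rragc+/+ and 4 RragcS74N/+), the horizontal bar is the group mean and the whiskers are the SD, and in each panel the points of both genotypes overlap.

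In order of level, S100a9 (mean of 64038 normalized counts over the 9 libraries) and S100a8 (51505) stood above S100a6 (7101) and S100a11 (6917). S100a13 (179.8), S100a1 (30.8) and S100a4 (7.10) followed, and the place of S100a4 is uncertain because Gm42674 overlaps its span. S100a8 was 7.25 times as abundant as S100a6, and S100a11 was 38.5 times as abundant as S100a13. S100a6 and S100a11 did not differ beyond their spread, since S100a6 was higher in 5 of 9 libraries (exact sign-flip permutation test, p = 0.605). Every other neighbour in this order was higher in 9 of 9 libraries (exact sign-flip permutation test, p = 0.00391 each, adjusted over 6 pairs p = 0.00469). The order was taken from these same values, so the p-values add no separate support for it. Among all listed genes S100a6 and S100a11 ranked 14 and 15, S100a13 1354, S100a1 4482 and S100a4 7102. The 5 listed members other than S100a8 and S100a9 held 1.06% ± 0.0423 (SD, n = 5) of listed counts against 1.05% ± 0.123 (SD, n = 4), a difference of -0.00873 percentage points (exact permutation test, p = 0.889, adjusted over 3 tests p = 0.889), whose sign turned under 3 of 13 alternatives.

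No member passed a test of the difference between genotypes. In limma, 0 of the 6 members tested had an adjusted p under 0.05, where 0 of 6673 genes tested (0.0%) did, and 0 of 6 had an unadjusted p under 0.05, against 388 genes (5.81%), of which 134 (2.01%) were higher and 254 (3.81%) lower in RragcS74N/+. edgeR and DESeq2 on the recovered reads also gave 0 members at either threshold, against 460 genes (6.89%) and 447 genes (6.70%) at an unadjusted p under 0.05. In 0 of 6 members were the genotypes without overlap, against 113 genes (1.69%). The median log2 difference of the 6 members was 0.07, beside 0.02 over all genes tested. The intervals still hold log2 differences of up to 0.55 for S100a8 and 0.61 for S100a9 toward RragcS74N/+.

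The members differed in how far they varied together between libraries. S100a8 and S100a9 had a Pearson r of 0.941 on the log2 scale over the 9 libraries (exact permutation test, adjusted over 21 pairs p = 0.00966) and a Spearman rho of 0.967 (adjusted p = 0.00347). Without the 2 libraries farthest from the median, r was 0.924, and with each genotype's mean subtracted it was 0.952. This was the 1 pair of 21 past the adjusted threshold, while 20 of 21 pairs had an r above 0 and 4 had an unadjusted p under 0.05. S100a6 with S100a13 had r = 0.765 and rho = 0.467 (exact permutation test, adjusted p = 0.126 for r and 0.483 for rho), and r was 0.220 without the 2 farthest libraries. S100a6 with S100a9 had r = 0.691 and rho = 0.50 (exact permutation test, adjusted p = 0.126 for r and 0.483 for rho), with r = 0.349 without the 2 farthest. S100a9 with S100a13 had r = 0.714 and rho = 0.667 (exact permutation test, adjusted p = 0.161 for r and 0.319 for rho), with r = 0.481 without them. S100a1 and S100a13, whose promoter windows overlap, had r = 0.451 and rho = 0.50 (exact permutation test, adjusted p = 0.338 for r and 0.483 for rho).

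**Figure D3:**
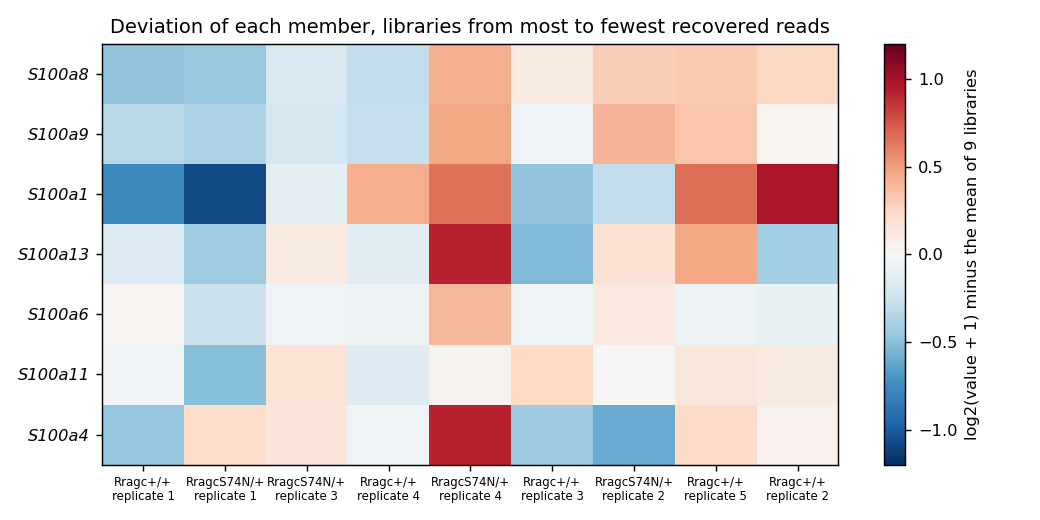
Deviation of each listed member, on the log2(value + 1) scale, from its own mean over the 9 libraries, with libraries ordered from most to fewest recovered reads. The rows of S100a8 and S100a9 carry nearly the same colours, and in both the 4 libraries with the most reads lie below the mean.

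The share of S100a8 and S100a9 was set against 5 other measures of the libraries. The share of the pair correlated with the share of mitochondrial genes, which ran from 2.98% to 4.95%, with r = 0.945 and rho = 0.933 (exact permutation test, adjusted over 5 relations p = 0.00112 for r and 0.00375 for rho), and with r = 0.932 without the 2 farthest libraries. It also correlated with recovered reads, with r = -0.777 and rho = -0.767 (exact permutation test, adjusted p = 0.0241 for r and 0.0356 for rho). That r was -0.834 with each genotype's mean subtracted and -0.497 without Rragc+/+ replicate 1 and RragcS74N/+ replicate 1, the libraries with the most reads, so its strength depended on those 2. With the summed share of antimicrobial and granule genes (5.72% to 7.79%) r was 0.865 and rho 0.817 (exact permutation test, adjusted p = 0.00689 for r and 0.0269 for rho), and r was 0.853 without the 2 farthest. With the erythroid share r was 0.246 and rho 0.300 (exact permutation test, adjusted p = 0.525 for r and 0.437 for rho), and with the share of neutrophil precursor genes r was 0.440 and rho 0.433 (exact permutation test, adjusted p = 0.287 for r and 0.312 for rho). All these shares are parts of the same total, and their part in the levels of S100a8 and S100a9 was not tested.

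Recovered reads of S100a8 ran only from 51109 to 64610, a 1.26-fold range, while the totals ran over a 1.63-fold range. The slope of log2 reads on log2 total reads, which is 1 for a transcript that holds a fixed share, was -0.07 for S100a8 and 0.30 for S100a9, against 1.12 for S100a6 and 0.76 for S100a11. The median slope of all listed genes was 1.33, and 6.25% of genes had a slope below that of S100a8. The genes ranked 3 to 10 by level were looked at after their values were seen. Of these, Tmsb4x (rank 6) had a slope of 1.58, and all others lay under 1. These were mt-Rnr1 (0.02), mt-Rnr2 (0.23), Wfdc21 (0.31), Lyz2 (0.52), Retnlg (0.52), Actb (0.70) and Ngp (0.82). Low slopes were thus not particular to S100a8 and S100a9, and no relation of slope to level was tested. Recovered reads did not separate the genotypes, at 1515380 ± 285755 (SD, n = 5) and 1592000 ± 209017 (SD, n = 4; exact permutation test, p = 0.651). With log2 recovered reads as a covariate, the log2 difference between genotypes was 0.16 for S100a8 and 0.22 for S100a9 (limma adjusted p = 0.842 and 0.823), and the difference in the share of the pair was 0.932 percentage points (exact permutation test, p = 0.198).

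**Figure D4:**
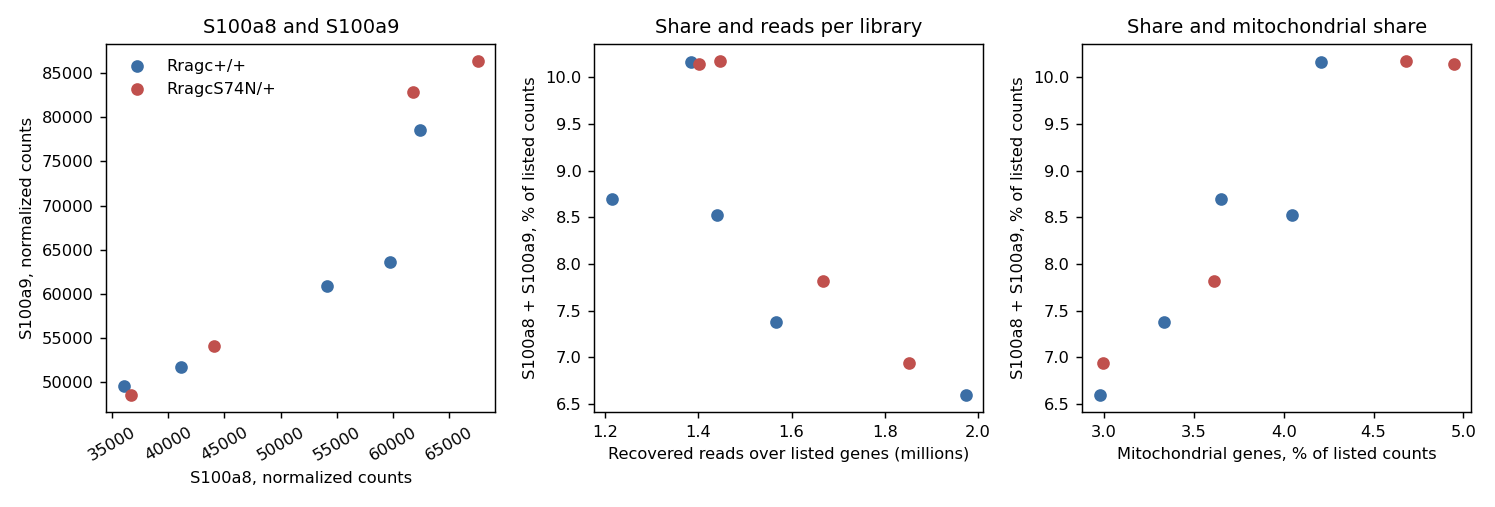
Left, normalized counts of S100a9 against S100a8. Middle and right, the share of S100a8 and S100a9 in percent of listed counts against recovered reads and against the share of mitochondrial genes in percent. Each point is a library, coloured by genotype, and points of both genotypes lie along the same trends (r = 0.941 on the log2 scale for the left panel, -0.777 for the middle and 0.945 for the right).

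By the same measure, the genes most like each alarmin over the 9 libraries were sought, as a description with no test. They were drawn from genes that averaged 50 or more normalized counts, with the S100 members left out. For S100a8 they were mt-Nd4 (r = 0.958), Gm38843 (0.957), Eif2s2 (0.949), 5830432E09Rik (0.949) and Rpl26 (0.945), which include a mitochondrially encoded subunit of complex I, a translation initiation factor subunit and a ribosomal protein. For S100a9 they were Sec61g (0.973), Atp5md (0.968), Rbis (0.967), mt-Rnr2 (0.959) and Atpif1 (0.955), of which Sec61g encodes a part of the protein channel of the endoplasmic reticulum and Atp5md a subunit of the ATP synthase. Of 3474 genes compared, other S100 members included, an r above 0.9 was reached by 22 (0.633%) with S100a8 and 41 (1.18%) with S100a9. These counts include the other alarmin, as S100a8 and S100a9 had r = 0.941. The points share library and depth, and genes are not independent of each other.

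Of 17 further S100 family symbols looked for, 2 were listed. S100pbp, which encodes a protein that binds S100P, averaged 22.2 ± 8.0 (SD, n = 5) against 26.6 ± 8.93 normalized counts (SD, n = 4), with a log2 difference of 0.27 (SE 0.31, limma adjusted p = 0.789). S100a7a had a mean of 9.29, under the filter. S100a2, which was on no list and was noticed after the values were seen, measured 19.1 ± 6.98 (SD, n = 5) and 21.2 ± 7.79 (SD, n = 4), with a log2 difference of 0.15 (limma adjusted p = 0.890).

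Of the receptors and signal carriers of S100 proteins, 9 of 11 were listed and 8 tested. By limma, 0 of 8 had an adjusted p under 0.05, where 0 of 6673 genes tested did. An unadjusted p under 0.05 was reached by 0 of 8, against 388 genes (5.81%). The median log2 difference was -0.003 beside 0.02 for all genes. Tlr4, the receptor of released calprotectin, averaged 74.6 ± 24.2 (SD, n = 5) against 90.2 ± 13.4 normalized counts (SD, n = 4), with a log2 difference of 0.32 (SE 0.24, limma adjusted p = 0.729). Ager, which encodes RAGE, was scarce, at 13.7 ± 7.01 (SD, n = 5) and 12.8 ± 3.36 (SD, n = 4). The adaptor Myd88 measured 382 and 407 normalized counts on average, and Cd33, a lectin known as a receptor of S100A9, was the most abundant of the group at 913 and 895. The scavenger receptor gene Cd68 had the smallest unadjusted p of the group, with 106 ± 39.6 (SD, n = 5) against 68.7 ± 9.38 normalized counts (SD, n = 4) and a log2 difference of -0.54 (limma adjusted p = 0.713). Cd14, a co-receptor of TLR4, had a mean of 6.68 and was not tested.

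Of the binding partners of S100 proteins, namely annexins, non-muscle myosin and the NADPH oxidase that calprotectin supplies with arachidonic acid, 12 of 13 were listed and tested. By limma, 0 of 12 had an adjusted p under 0.05, where 0 of 6673 genes tested did. An unadjusted p under 0.05 was reached by 0 of 12, against 388 genes (5.81%). The log2 differences of these partners lay below 0 in 11 of 12, against 46.6% of all genes tested. Their median was -0.26 beside 0.02 for all genes. The 3 with the most negative differences were Anxa11 (-0.54), Anxa6 (-0.48) and Anxa5 (-0.40). Rragc+/+ replicate 2 held the highest normalized counts of Anxa11 (615), Anxa6 (127), Anxa2 (3370), Rac2 (4090) and Cybb (3049), and the lowest of Anxa1. Those of Anxa5, Ncf1, Ncf4, Myh9 and Cyba were highest in other libraries. The 12 genes are not independent of each other, and no test of them as a set was run. Anxa1, which encodes the partner of S100A11, was the 1 gene above 0 and the most variable, with 3185, 789, 2072, 1171 and 5187 normalized counts in Rragc+/+ replicates 1 to 5 and 2497, 3416, 2702 and 5797 in RragcS74N/+ replicates 1 to 4. Its ranges overlapped, and its log2 difference was 0.77 (SE 0.45, limma adjusted p = 0.713). Anxa2, which encodes the partner of S100A10, averaged 2328 ± 679 (SD, n = 5) against 1767 ± 115 normalized counts (SD, n = 4), with a log2 difference of -0.35 (SE 0.20, limma adjusted p = 0.713). Of the oxidase, Cybb had a log2 difference of -0.13, Ncf1 -0.33, Ncf4 -0.16, Cyba -0.07 and the small GTPase gene Rac2 -0.33, each with a limma adjusted p of at least 0.713. Myh9, the myosin heavy chain bound by S100A4, had -0.19. The count at an unadjusted p under 0.05 was 0 of 12 with every library and 5 of 12 without Rragc+/+ replicate 5, where the count over all genes was 907 of 6629 (13.7%).

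Of 32 other EF-hand genes, 31 were listed and 30 tested. In limma 0 passed the adjusted threshold, where 0 of 6673 genes tested did. The median log2 difference was 0.01. Myl6, a myosin light chain, was the most abundant at 5355 ± 1229 (SD, n = 5) against 5418 ± 1772 normalized counts (SD, n = 4), and Lcp1 (plastin) stood at 2447 and 2583 and Sri (sorcin) at 1201 and 1301. An unadjusted p under 0.05 was found for 3 of 30 genes, all lower in RragcS74N/+, against 254 of 6673 genes (3.81%) in that direction. Among these 3 was Ehd1, an endocytic recycling gene (562 ± 110 and 378 ± 53.3 normalized counts, log2 difference -0.56). Nucb1 (-0.63) was another, and each had a limma adjusted p of 0.713. The count in both directions was 6 without Rragc+/+ replicate 5, where 907 of 6629 genes (13.7%) reached an unadjusted p under 0.05. It was 1 without RragcS74N/+ replicate 4, where 224 of 6650 genes (3.37%) did.

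All 9 transcription factor genes taken as known regulators of S100a8 and S100a9 were listed. In limma 0 passed the adjusted threshold, where 0 of 6673 genes tested did. The median log2 difference was -0.01. Cebpb, a C/EBP factor of emergency granulopoiesis, averaged 363 ± 52.0 (SD, n = 5) against 251 ± 54.0 normalized counts (SD, n = 4), with a log2 difference of -0.55 (limma adjusted p = 0.713), and it was the 1 gene of 9 with an unadjusted p under 0.05, against 5.81% of all genes. The count was 2 of 9 without Rragc+/+ replicate 1 or 5, where 641 of 6679 (9.60%) and 907 of 6629 genes (13.7%) reached it. The ranges of Cebpb overlapped, from 302 to 432 in Rragc+/+ and from 188 to 314 in RragcS74N/+. Cebpd, the most abundant of the group, measured 1503 ± 438 (SD, n = 5) and 1655 ± 208 (SD, n = 4), and Spi1, which encodes PU.1, 994 ± 326 (SD, n = 5) and 814 ± 87.0 (SD, n = 4). The log2 differences were 0.19 for Cebpd, -0.24 for Spi1, 0.03 for Stat3 and -0.52 for Cebpe, the C/EBP factor of late granulocyte maturation, each with a limma adjusted p of at least 0.713.

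Antimicrobial and granule genes other than S100a8 and S100a9 were also compared. Of 14 looked for, 13 were listed and tested. In limma 0 passed the adjusted threshold, where 0 of 6673 genes tested did. An unadjusted p under 0.05 was reached by 0 of 13, against 388 genes (5.81%). The median log2 difference was 0.01. Retnlg, a resistin-like secreted protein, averaged 18752 ± 2585 (SD, n = 5) against 20839 ± 6558 normalized counts (SD, n = 4), with a log2 difference of 0.11. Wfdc21, Lyz2 (lysozyme) and Ngp had log2 differences of 0.09, 0.01 and -0.07, and the genes with the smallest unadjusted p-values were Stfa2l1 (log2 difference 0.32) and Camp, the cathelicidin gene (log2 difference 0.36).

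**Figure D5:**
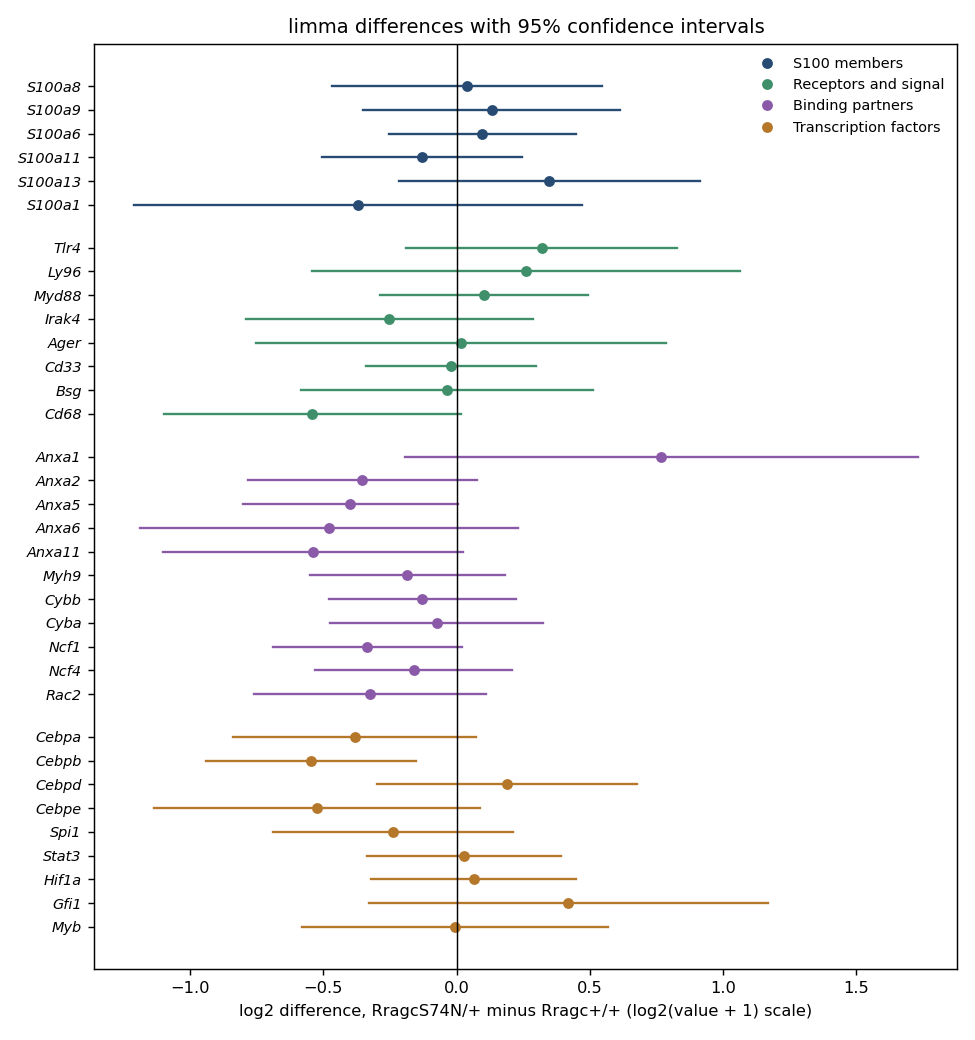
Log2 differences (RragcS74N/+ minus Rragc+/+, on the log2(value + 1) scale) with 95% confidence intervals from limma for the tested members, receptors and signal carriers, transcription factors and the binding partners named above. All intervals but that of Cebpb cross 0, and each binding partner plotted other than Anxa1 lies left of 0.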

How the data were processed

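A 3′-end kit with molecular identifiers was used. The authors mapped the reads on GRCm39 by TopHat2 (2.0.10), per the labels and the study's methods, and HTSeq (0.6.1) gave stranded counts per GENCODE gene. Any collapsing by identifier and the filter behind the gene list are not given in the sources used here. The deposited values are a signal, namely gene read counts that the authors divided by 1 size factor per library. Every value was a whole multiple of the value of 1 read, within 0.01 reads (100% of values), and these multiples are the recovered reads.

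The labels give genotype and age, and 0 columns were left without a sample. They give no batch or date and do not state that libraries came from separate animals, so p-values measure the spread between these libraries. The study's text describes 5 mice per genotype, and 4 RragcS74N/+ libraries were analysed here. No pair of libraries within a genotype looked like a duplicate, as chi-square divided by its degrees of freedom was 5.47 or more in all 16 pairs.

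Values were taken as log2(value + 1), which understates changes of low genes. The test across genes (mean of 10 or more) was limma (3.58.1, R 4.3.3, trended moderation, genotype as the one term), adjusted by Benjamini-Hochberg over all genes tested with a threshold of 0.05. Since the deposited values are not raw counts, the count test of the study was not the main test, and edgeR (4.0.16) and DESeq2 (1.42.0) were run on recovered reads. Single values were tested by exact permutation over all 126 splits. Other pseudocounts, filters, scalings, moderation, library weights and denominators were tried, and each library was left out once. Promoter windows came from RefSeq (GRCm38.p6), not the build of the reads, and overlaps of gene models from GENCODE of GRCm38. On simulated counts limma found 55.2% of genes changed by a log2 value of 1 and 98.1% of those changed by 2, of 192 changed among 6566 tested, and 2.58% of its calls were false. The counts were drawn independently for each gene, with a spread set only by its level. Variation that genes share between libraries was left out, so these rates need not hold for the real libraries.

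The members, the gene lists and the motifs were chosen with earlier results of these data known. Named genes are the members, the listed S100 relatives, receptors and partners, the 4 most abundant and the 2 with the smallest p of each other list, and the 5 genes most like S100a8 and S100a9. Exceptions are named as such, and some genes that this rule takes are not reported here.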

Additional observations from a re-analysis of the deposited data

How the results depend on the processing

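No paired analysis was possible because replicate numbers are not in the labels. Recovered reads as a covariate, a denominator without mitochondrial ribosomal RNA, the slopes of reads on total reads, the tests of the order of levels and the relations of the share with other measures were chosen after seeing the data. The count of 0 members at an adjusted p under 0.05 held under 21 alternatives, as did the count of 0 for each of the other gene lists. Differences near 0 turned when 1 library was left out. The S100a8 log2 difference, 0.04, ranged from -0.10 to 0.20 and was -0.07 without Rragc+/+ replicate 1, -0.03 without Rragc+/+ replicate 4, -0.05 without RragcS74N/+ replicate 2 and -0.10 without RragcS74N/+ replicate 4. The S100a6 difference, 0.10, ranged from -0.02 to 0.20 (-0.019 without RragcS74N/+ replicate 4), and the S100a11 difference, -0.13, from -0.21 to 0.01 (0.014 without RragcS74N/+ replicate 1). The differences of S100a9, S100a13 and S100a1 kept their sign, with ranges from 0.0017 to 0.28, from 0.10 to 0.55 and from -0.66 to -0.08. The share of the other members differed by -0.00873 percentage points as reported and by 0.0228 between medians, with a range from -0.0493 to 0.0467 and a sign that turned without Rragc+/+ replicate 3 (0.00600) and without RragcS74N/+ replicate 1 (0.0467). The share of S100a8 and S100a9 kept its direction under 15 alternatives, with differences from 0.0302 to 1.11 percentage points and p from 0.198 to 1.00. The correlation of S100a8 and S100a9 stayed between 0.908 and 0.969 under 12 alternatives, each with an adjusted p of at most 0.0479 in the exact permutation test. The count of member pairs past the threshold, 1, ranged from 1 to 2, with 2 without Rragc+/+ replicate 1. Among binding partners the count at an unadjusted p under 0.05, 0, ranged from 0 to 5, with 5 without Rragc+/+ replicate 5, where 13.7% of all genes reached it against 5.81% with every library. Where values turned, the cause was not tested. Counts of 4 to 13 reads limit S100a4, and spread between libraries limits the other members.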

Other observations

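Dixon's test for a distant library was run within each genotype on 10 S100 quantities, 20 groups in all, and it marked 0, where chance gives about 1.

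RragcS74N/+ replicate 4 held the highest value of 5 of the 7 listed members (S100a4, S100a6, S100a8, S100a9 and S100a13) over the 9 libraries, and RragcS74N/+ replicate 1 held the lowest value of S100a1, S100a6, S100a9 and S100a11. The same replicate 4 held the highest values of Anxa1 (5797 normalized counts), Retnlg (28435) and Camp (13514), and replicate 1 the lowest of Retnlg (14335). These libraries have the same genotype label, and the reason for their distance was not tested.

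Across libraries, the member levels related to recovered reads in different degrees. S100a8 had r = -0.873 and rho = -0.767 with recovered reads (exact permutation test over 7 members, adjusted p = 0.0106 for r and 0.0726 for rho), with r = -0.692 without the 2 libraries with the most distant read totals. S100a9 had r = -0.693 and rho = -0.733 (exact permutation test, adjusted p = 0.0928 for r and 0.0726 for rho), and S100a1 r = -0.771 and rho = -0.733 (exact permutation test, adjusted p = 0.0549 for r and 0.0726 for rho). S100a11 had r = -0.559 and S100a4 r = -0.124 (exact permutation test, adjusted p = 0.206 and 0.750). S100a6 had r = -0.250 and S100a13 r = -0.172 (exact permutation test, adjusted p = 0.742 and 0.750). Over all 3475 genes with a mean of at least 50, the median r with recovered reads was 0.01. A lower r than that of S100a8 was found for 0.518% of genes, and a lower r than that of S100a9 for 4.69%.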
